A study of Mus musculus with 6 samples.

Results

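The genes described here are imprinted genes of the mouse, of which one parental copy is silenced, measured in blastocysts that had been cultured with a mimic of the microRNA miR-30d or with a scrambled control. A list of 34 such genes was taken, and all 34 had at least 1 named feature on the array, out of 22485 genes named there. For each gene the feature with the highest mean over the 6 arrays was used. The list holds 14 genes that are expressed mainly from the maternal copy, 19 from the paternal copy, and Gnas, whose transcripts differ in parental origin.

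In an imprinted gene a mark laid down in the egg or the sperm, usually DNA methylation at a control region, keeps the copy of one parent silent after fertilisation. Many of these genes sit in clusters, where one control region governs protein-coding genes and a long non-coding RNA together, often in opposite parental directions. Paternally expressed members such as Igf2, Mest and Peg3 are known mostly for promoting growth of the fetus and placenta, and maternally expressed members such as Igf2r, Cdkn1c, Phlda2 and Grb10 for restraining it. Culture of the embryo before implantation is known to disturb some of these marks. The arrays measured total transcript of both copies, so neither methylation nor parental origin was read, and the parental classes are background knowledge. For several members, among them Ube3a, Rasgrf1, Ndn and Magel2, imprinting is known mainly from the brain, and their 2 copies need not differ in the blastocyst.

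Embryos of the B6C3F1 strain, from superovulated females of 6 to 8 weeks, were flushed on day 2 of pregnancy and cultured for 72 hours to the blastocyst stage of day 5. The mimic group received 400 nM of the miR-30d mimic. The scramble group received 400 nM of a scrambled oligonucleotide with the dye Alexa 488, which the labels name for the control alone. Each group has 3 arrays, each hybridised with Cy3-labelled RNA made from 50 ng of total RNA of whole blastocysts, and the design text gives 30 embryos per condition. Untreated embryos and embryos before culture were not analysed here, so both groups carry whatever culture and an added oligonucleotide do to imprinted genes. The dye and the scrambled sequence cannot be told apart as features of the control. The samples are called biological replicates, but the labels name no matings or days, and the p-values reflect the spread of these samples alone. In whole embryos a difference in the number of cells of a type and a difference in RNA per cell cannot be told apart.

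The sequence of miR-30d itself was not printed. The 3 relatives below show the stretch, bases 2 to 8 in capitals, by which microRNAs of this family recognise their targets, and it is the same in all 3 (mature sequences from RefSeq, GRCm38.p6).
miR-30a-5p: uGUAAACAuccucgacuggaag
miR-30c-5p: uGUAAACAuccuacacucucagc
miR-30e-5p: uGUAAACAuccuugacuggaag

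Promoter windows of 300 bases (250 before to 50 after the start site, RefSeq, GRCm38.p6) were held for 28 of the 34 members. The first is that of Meg3, the member with the largest difference below, the second that of Dlk1, the coding gene of the same cluster, and the third a start of Mest, whose 12 features all pointed one way. Capitals mark matches to TGCCGC, the letters that the imprint-protecting protein ZFP57 binds when they are methylated, searched on both strands (as GCGGCA on the other), and to TGACGTCA, the palindromic cAMP response element, which was searched after the Meg3 window had been read. No match of the one overlapped a match of the other.
Meg3, chr12:109540746-109541045, plus strand: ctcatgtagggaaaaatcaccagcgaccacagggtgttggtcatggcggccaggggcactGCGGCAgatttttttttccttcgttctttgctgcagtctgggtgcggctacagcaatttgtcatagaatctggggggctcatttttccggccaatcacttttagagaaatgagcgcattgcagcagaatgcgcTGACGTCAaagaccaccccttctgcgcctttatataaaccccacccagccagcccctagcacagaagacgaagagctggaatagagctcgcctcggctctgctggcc
Dlk1, chr12:109452573-109452872, plus strand: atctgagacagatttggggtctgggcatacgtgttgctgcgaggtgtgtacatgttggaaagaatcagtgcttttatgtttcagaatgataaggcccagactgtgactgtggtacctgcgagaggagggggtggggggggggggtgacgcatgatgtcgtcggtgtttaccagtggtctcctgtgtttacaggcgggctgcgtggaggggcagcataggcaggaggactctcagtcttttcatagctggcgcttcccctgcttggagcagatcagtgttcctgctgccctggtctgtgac
Mest, chr6:30737800-30738099, plus strand: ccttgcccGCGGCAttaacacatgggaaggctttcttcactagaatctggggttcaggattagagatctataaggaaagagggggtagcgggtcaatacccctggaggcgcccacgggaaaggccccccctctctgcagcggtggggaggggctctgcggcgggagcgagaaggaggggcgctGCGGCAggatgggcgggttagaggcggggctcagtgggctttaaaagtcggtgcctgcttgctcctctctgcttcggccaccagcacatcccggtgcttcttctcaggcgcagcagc

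The Meg3 window held 1 match of each motif, the Mest window 2 of TGCCGC, and the Dlk1 window none. Over all members 8 of 28 (28.6%) had TGCCGC in at least 1 window, against 13.1% of the 27025 genes in the table. Members have more windows per gene, and by window it was 19.1% of 47 against 11.6% of 32851. The Mest windows that start at 30737800 and 30737803 are almost the same stretch, so the same matches are counted in both. The 8 were Nnat, Mest, Zim1, Snrpn, Igf2, Plagl1, Grb10 and Meg3, which are 3 of 11 maternally and 5 of 16 paternally expressed members with a window. The response element was present in Meg3, Peg3 and Usp29, 10.71% of members against 2.03% of genes. By window it was 6.38% of 47 against 1.79% of 32851. The Meg3 window prompted this search, so its own match is no support for an excess. Peg3 and Usp29 are read in opposite directions from 1 place, their windows share 263 bases, and so their match is the same. The median ratio of observed to expected CpG was 0.61 over the members' 47 windows and 0.38 over all 32851, and the median GC content 60.0% and 52.7%. The shares of windows and genes with a match were not adjusted for this base composition. Maternally and paternally expressed members had median CpG ratios of 0.68 and 0.57. These are counts of letters and say nothing of binding or methylation in these embryos.

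Both replicate 1 arrays stood apart from the rest. Over all named features scramble replicate 1 correlated with the other arrays at 0.916 to 0.922 and mimic replicate 1 at no more than 0.947, while the other 4 reached 0.976 to 0.988 with their closest partner. Over the 45220 features the least varied of the 6 arrays held only 2108 distinct values, where the most varied held 5979. For many members a value without both replicate 1 arrays, or without 1 array, is given beside the difference. A member without such a value is not thereby stable. All 16 markers of the labelled tissue (among them Cdx2, Pou5f1 and Gata6) had a mean log2 signal above 8, with a list mean of 11.17 to 11.42 on the scramble and 11.27 to 11.46 on the mimic arrays. Of the markers of other cells above that level there were 0 of 5 for oviduct, 0 of 6 for sperm, 0 of 4 for blood, 0 of 5 for stroma, 2 of 7 for cumulus cells and 3 of 5 for neurons. The cumulus list mean was 7.95 to 8.16 with scramble and 7.94 to 8.25 with the mimic, and the neuron list mean 8.34 to 8.79 and 8.23 to 9.27. Their part in the members' values was not tested. The 16 markers of the labelled tissue moved both ways. Of these, 8 had a higher and 8 a lower mean with the mimic, with log2 differences from -0.62 (Cdx2) to 0.53 (Elf5). The groups' arrays did not overlap for 3 of the 16, against 9.7% of all genes. In limma 0 had an adjusted p under 0.05. With the replicate number as a block 4 had an unadjusted p under 0.05, against 7.24% of all genes. Whether cell numbers differed was not tested.

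A dim feature has no known detection limit here, and the median over features without a gene name was a log2 signal of 7.22. Of the 34 members 16 had a mean below 8, from 7.01 to 7.90, and the log2 differences of such members can understate true ones. They were 13 of 19 paternally expressed members (Igf2, Peg3, Peg10, Mest, Dlk1, Nnat, Sgce, Usp29, Ndn, Magel2, Mkrn3, Peg12 and Rasgrf1) and 3 of 14 maternally expressed ones (Zim1, Kcnq1 and Asb4). The level of 8 lies in a gap of the members' values and was set after they had been seen. Kcnq1, Usp29 and Magel2 lay in the dimmest 25% of features and were not tested, which left 31 members.

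No imprinted gene passed the test between mimic and scramble. In limma (two-sided, Benjamini-Hochberg adjustment over 17399 genes) 0 of 31 members and 0% of all genes had an adjusted p under 0.05, and every adjusted p of a member was 0.972 or more. At an unadjusted p under 0.05 there were 2 members, Meg3 and Phlda2, or 2 of 31 against 3.17% of all genes (552). The mimic and scramble arrays did not overlap for 3 of the 31, Meg3, Impact and Mest, against 9.7% of all genes (1687). Fitting the replicate number as a block raised the unadjusted counts to 3 members, with H19 as the further one, and 1260 genes (7.24%). These counts are small, and nothing is called particular to the members from them.

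The members lay slightly on the higher side with the mimic, as did all genes. Of the 31, 20 had a higher and 11 a lower mean with the mimic, and the median log2 difference (mimic minus scramble) was 0.10, against 9254 of 17399 higher and a median of 0.02 over all genes. The quartiles of the members were -0.03 and 0.19, and of all genes -0.16 and 0.19. The number of higher members went from 16 without scramble replicate 1 to 24 without mimic replicate 1, and was 19 without both replicate 1 arrays, with a median of 0.05. With each array left out in turn, 9 members were higher throughout (H19, Peg3, Mest, Igf2r, Phlda2, Zim1, Cd81, Peg12 and Slc22a18), 3 lower throughout (Meg3, Nnat and Impact), and 19 changed side. The median SD between scramble arrays was 0.41 over the paternally and 0.28 over the maternally expressed members, against 0.28 over all genes. Between mimic arrays the order was reversed, with 0.23 over the paternally and 0.28 over the maternally expressed members, against 0.22 over all genes.

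The differences of maternally and paternally expressed members covered overlapping ranges, from -0.98 (Meg3) to 0.62 (Phlda2) in the maternal class and from -0.41 (Impact) to 0.54 (Mest) in the paternal class. In the maternal class 8 of 13 tested had a higher mean with the mimic and the median difference was 0.11. In the paternal class it was 11 of 17, and the median 0.03. The difference of these medians was 0.08, and it changed sign with single arrays, to -0.18 without scramble replicate 3 and -0.15 without mimic replicate 1, and to 0.23 without scramble replicate 1. Without both replicate 1 arrays it was 0.02. The paternally expressed members as a class read low on scramble replicate 1, where their median deviation from their own 6-array means was -0.42, while on the other 5 arrays it lay between -0.12 and 0.09. For the 6 paternally expressed members above a log2 signal of 8 it was -0.23 on scramble replicate 1 and -0.22 on mimic replicate 1. On mimic replicate 3 it was 0.31, and on the remaining arrays it lay between -0.02 and 0.07. The maternally expressed members deviated by -0.18 to 0.05 over the 6 arrays. Among members above a log2 signal of 8, the median was 0.11 for 11 maternally and 0.04 for 6 paternally expressed ones.

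**Figure D1:**
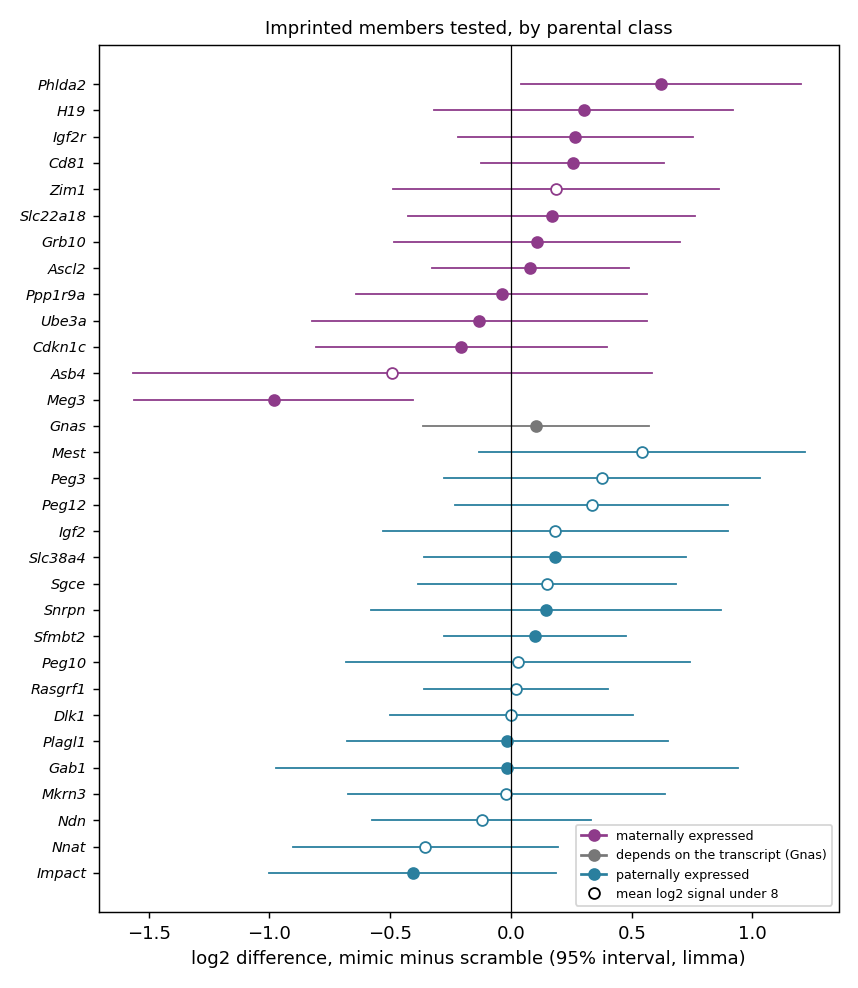
Log2 difference (mimic minus scramble, x axis) of the 31 imprinted members tested, with 95% intervals from limma, grouped by parental class; open circles mark members with a mean log2 signal under 8. Only the intervals of Meg3 and Phlda2 leave out 0, and no adjusted p passed.

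Among the members tested the largest difference was that of a long non-coding RNA. Meg3, a maternally expressed non-coding RNA of the Dlk1 to Dio3 cluster that is known as a growth suppressor, read 10.39, 10.50 and 9.64 on scramble replicates 1 to 3 and 8.95, 9.43 and 9.20 on mimic replicates 1 to 3 (log2 signal). Every mimic array lay below every scramble array. The means were 10.18 ± 0.47 and 9.19 ± 0.24 (SD, n = 3 each). The log2 difference was -0.98 (SE 0.25, 95% interval -1.56 to -0.40), or 1.98-fold lower with the mimic. The limma p was 0.00416 unadjusted and 0.972 adjusted, and the two-sided exact permutation p was 0.1, the smallest that 3 arrays against 3 allow. The log2 difference was -0.75 without both replicate 1 arrays and stayed between -1.25 and -0.82 with each array left out in turn. With the replicate number as a block its unadjusted p was 0.00245 and its adjusted p 0.408. The other 2 features of Meg3 were dim, with log2 differences of -0.38 and -0.13. With the mean of its 3 features in place of the brightest the difference was -0.50, with an unadjusted limma p of 0.109.

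Mirg, a further maternal non-coding RNA of that cluster and the host of many microRNAs, belongs to a list of other imprinted genes rather than to the 34. Its brighter feature read 9.66, 9.10 and 9.18 with scramble and 8.74, 8.50 and 8.38 with the mimic, and its log2 difference was -0.78 (SE 0.24, limma adjusted p = 0.972), and -0.71 without both replicate 1 arrays. The second feature of Mirg read 8.78, 8.29 and 8.30 with scramble and 7.74, 7.97 and 7.97 with the mimic, again without overlap. Meg3 and Mirg are described here because of their small p, and neither passed the adjusted test, so their lying in 1 cluster is no support for either. The paternally expressed coding gene Dlk1, a Notch-related regulator of growth and differentiation, read 7.18, 7.45 and 7.23 with scramble and 6.95, 7.57 and 7.35 with the mimic, near the level of unnamed features, so a difference was not readable there. The single features of the paternally expressed coding genes Rtl1 and Dio3 were dimmer still and below the filter, with log2 differences of -0.28 and -0.27, and the arrays of both overlapped.

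H19, the maternally expressed non-coding RNA beside Igf2, was on the opposite side. It read 13.51, 14.09 and 13.80 with scramble and 13.61, 14.62 and 14.07 with the mimic, the groups overlapped, and the log2 difference was 0.30 (SE 0.27, limma adjusted p = 0.972). It was 0.04 without mimic replicate 2, 0.55 without mimic replicate 1 and 0.40 without both replicate 1 arrays. The same-numbered pairs were higher by 0.10, 0.53 and 0.27. With the block the unadjusted limma p was 0.0274 and the adjusted p 0.658. A dim second feature of H19 had -0.24. Igf2os, an RNA read from the strand opposite Igf2 and also from the list of other imprinted genes, read 11.24, 10.83 and 10.99 with scramble and 10.56, 10.39 and 10.43 with the mimic, without overlap. Its log2 difference was -0.56 (SE 0.14, limma adjusted p = 0.972), and -0.50 without both replicate 1 arrays. Since the 2 genes overlap and the probe's strand is not known here, its signal cannot be assigned to one of them with certainty.

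**Figure D2:**
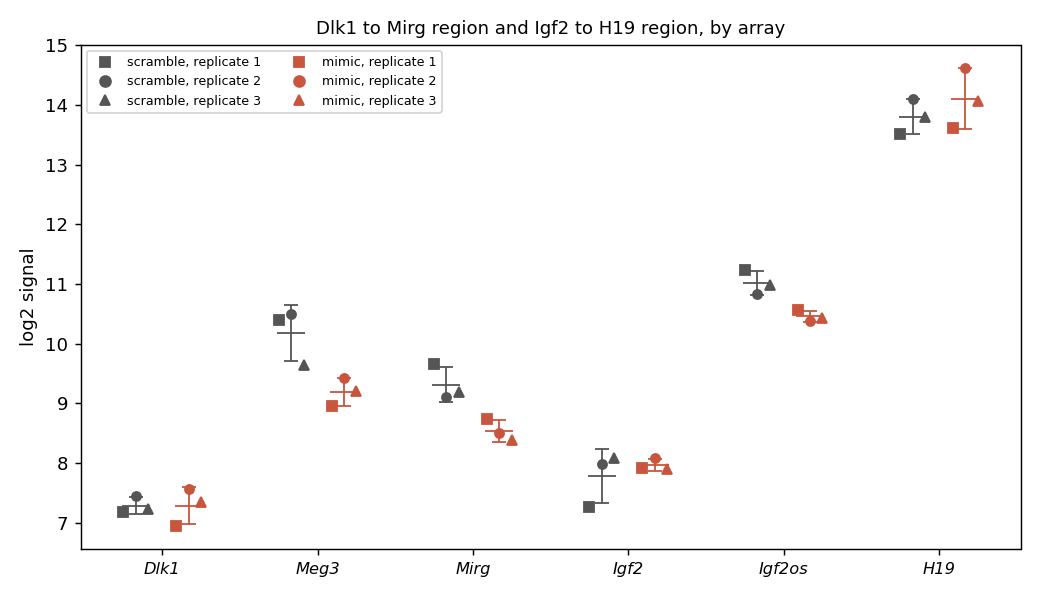
Log2 signal by array (y axis) for the genes of the Dlk1 to Mirg region and the Igf2 to H19 region; grey points are scramble and red points mimic arrays, with the mean and SD of 3 arrays. The mimic arrays of Meg3, Mirg and Igf2os lie below all their scramble arrays, while those of Dlk1, Igf2 and H19 overlap them.

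In the growth factor axis no gene passed the test, and single arrays set most of the differences. Igf2, the fetal growth factor, had 1 feature, which read 7.27, 7.99 and 8.09 with scramble and 7.92, 8.09 and 7.90 with the mimic. The low value is scramble replicate 1, and without that array the log2 difference went from 0.18 (SE 0.31) to -0.07. Igf2r, the receptor that binds Igf2 and carries it to lysosomes for breakdown, read 10.88, 10.79 and 10.97 with scramble and 11.65, 10.79 and 10.99 with the mimic on its brightest feature. Its log2 difference of 0.27 (SE 0.21) came from mimic replicate 1 and was 0.01 without it. The 10 features of Igf2r had a median difference of 0.05 and ranged from -0.08 to 0.27, so the brightest was also the most extreme. Airn, the paternal non-coding RNA that silences Igf2r in cis, had 0.28 (SE 0.32) on its brightest feature, or 0.05 without both replicate 1 arrays. Its further features had 0.31, -0.06 and -0.05.

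Grb10, an adaptor that dampens insulin and growth factor receptors, read 9.35, 9.20 and 9.18 with scramble and 9.92, 9.03 and 9.11 with the mimic, and its log2 difference was 0.11 (SE 0.26), or -0.18 without mimic replicate 1. Plagl1, a zinc finger transcription factor that regulates other imprinted genes, had -0.01 (SE 0.29) on its brightest feature and 0.35 without both replicate 1 arrays, while its 4 features went from -0.25 to 0.65. The feature at 0.65 read 7.13 on scramble replicate 1 and 8.51 to 9.04 on the other 5 arrays. Rasgrf1, a Ras exchange factor, read 7.31, 7.16 and 7.26 with scramble and 7.26, 7.28 and 7.24 with the mimic, at the level of unnamed features, and its second, equally dim feature had -0.52.

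The Kcnq1 cluster holds maternally expressed genes of placental development, and there Phlda2 had the largest difference. Phlda2, which restrains growth of the placenta, read 9.72, 9.35 and 9.48 with scramble and 10.55, 9.57 and 10.30 with the mimic. Mimic replicates 1 and 3 lay above all scramble arrays and mimic replicate 2 did not. The means were 9.52 ± 0.19 and 10.14 ± 0.51 (SD, n = 3 each), which differ by 0.62 log2 units (SE 0.25, 95% interval 0.04 to 1.20), or 1.54-fold. The limma p was 0.0385 unadjusted and 0.972 adjusted, the exact permutation p was 0.2, and the difference was 0.52 without both replicate 1 arrays. With the block the unadjusted p was 0.00764 and the adjusted p 0.541, and the same-numbered pairs were higher by 0.83, 0.22 and 0.82. The unadjusted p in limma was 0.051 after quantile normalization, 0.0581 without a trend, and 0.0859 to 0.139 in 4 of the 6 fits with an array left out. The difference ranged from 0.42 without mimic replicate 1 to 0.91 without mimic replicate 2. Phlda2 has only 1 feature, so no second reading of it was at hand.

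Slc22a18, a transporter gene directly beside Phlda2, read 8.48, 8.52 and 8.98 with scramble and 9.11, 8.60 and 8.78 with the mimic, and its log2 difference was 0.17 (SE 0.26), or -0.06 without both replicate 1 arrays. Cdkn1c, the cell cycle inhibitor p57, read 10.04, 9.70 and 10.10 with scramble against 9.65, 10.31 and 9.26 with the mimic, with mimic arrays on both sides of the scramble arrays and a log2 difference of -0.20 (SE 0.26). Ascl2, a transcription factor needed for the spongiotrophoblast, read 10.63, 10.44 and 10.20 with scramble against 10.41, 10.80 and 10.30 with the mimic. Its log2 difference was 0.08 (SE 0.18), or 0.23 without both replicate 1 arrays. These 3 genes overlapped between the groups.

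Cd81, a tetraspanin of the cell surface, read 9.62, 9.98 and 9.72 with scramble and 9.95, 10.21 and 9.92 with the mimic and had a log2 difference of 0.26 (SE 0.17, 95% interval -0.12 to 0.63, limma adjusted p = 0.972). It kept the same side in all 3 same-numbered pairs, by 0.33, 0.23 and 0.21. The potassium channel gene Kcnq1 was in the dimmest 25% of features. Kcnq1ot1, the paternal non-coding RNA that silences the cluster, had -0.43 (SE 0.42), which was -0.01 without both replicate 1 arrays. So within 1 cluster the tested members went from -0.20 to 0.62, and none passed.

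**Figure D3:**
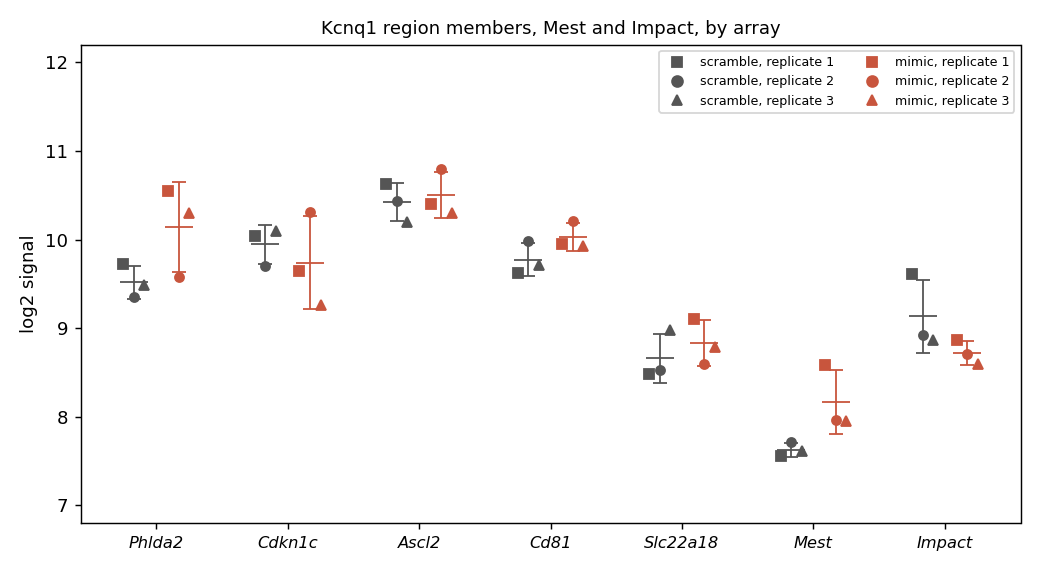
Log2 signal by array (y axis) for 5 maternally expressed genes of the Kcnq1 cluster and for the paternally expressed genes Mest and Impact; grey points are scramble and red points mimic arrays, with the mean and SD of 3 arrays. The arrays of Mest and Impact do not overlap between groups, and those of the 5 cluster genes do.

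Among paternally expressed genes Mest stood on the higher side on every feature. Mest, which encodes a membrane enzyme of the hydrolase fold and is known from fetal growth, read 7.56, 7.71 and 7.61 with scramble and 8.59, 7.96 and 7.95 with the mimic on its brightest feature. All mimic arrays lay above all scramble arrays, and mimic replicate 1 was the highest. The log2 difference was 0.54 (SE 0.30, 95% interval -0.13 to 1.22, limma adjusted p = 0.972), and 0.30 without both replicate 1 arrays. All 12 features of Mest had a higher mean with the mimic, by 0.09 to 0.54 with a median of 0.25. These features share the RNA of the same 6 arrays and some may repeat 1 probe, so they are not separate evidence, and all had means below 8.

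Impact, a regulator of the stress kinase GCN2 in translation, was on the lower side. It read 9.61, 8.92 and 8.87 with scramble and 8.86, 8.71 and 8.59 with the mimic, without overlap but with scramble replicate 3 and mimic replicate 1 nearly equal. The log2 difference was -0.41 (SE 0.26, limma adjusted p = 0.972), and it was -0.17 without scramble replicate 1. Its second feature, which was dim, had 0.02.

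In the Peg3 cluster, Peg3, a zinc finger gene known from maternal behaviour and fetal growth, read 6.72, 7.66 and 7.23 with scramble and 7.39, 7.88 and 7.48 with the mimic, and its log2 difference was 0.38 (SE 0.29), or 0.14 without scramble replicate 1. Its second feature had 0.01. Its neighbours, the maternally expressed zinc finger gene Zim1 and the paternally expressed ubiquitin protease gene Usp29, were dim as well, with differences of 0.19 and 0.22. That of Zim1 was 0.46 without both replicate 1 arrays. Peg10, a gene of retrotransposon origin that the placenta needs, read 7.08, 7.83 and 8.01 with scramble and 7.50, 7.72 and 7.80 with the mimic, with means that differ by 0.03 (SE 0.31), or by -0.17 without both replicate 1 arrays. Its second feature had 0.23. Sgce, the sarcoglycan gene that lies next to Peg10, had 0.15 (SE 0.23), or -0.08 without those arrays. Of the maternally expressed genes farther along, Ppp1r9a, which encodes the actin-binding protein neurabin, had -0.04 (SE 0.26). Asb4, a subunit gene of ubiquitin ligases, had -0.49 (SE 0.47), which rested on 1 bright reading of 8.95 on scramble replicate 1 and was 0.12 without it.

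In the cluster known from Prader-Willi and Angelman syndromes, Snrpn, which encodes a protein of the splicing machinery, read 8.78, 9.29 and 9.66 with scramble and 8.80, 9.54 and 9.82 with the mimic on its brightest feature. The log2 difference there was 0.15 (SE 0.32), and its 3 features had 0.15, 0.52 and 0.43. The feature at 0.52 read 7.31 on scramble replicate 1 against 8.50 to 8.90 on the other 5 arrays. Ube3a, the ubiquitin ligase gene that is maternally expressed in neurons, had -0.13 (SE 0.30), 0.21 without both replicate 1 arrays, and -0.25 on its second feature. Ndn and Magel2, both of the MAGE family, the ubiquitin ligase gene Mkrn3 and Peg12, which belongs to the Frat family of GSK3 binding proteins, lay between 7.06 and 7.47 in their means, with log2 differences of -0.12, 0.23, -0.02 and 0.33. Peg12 read 6.90, 7.47 and 7.41 with scramble and 7.41, 7.55 and 7.82 with the mimic. Its 2 features were equally dim and went to opposite sides, 0.33 and -0.61.

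Nnat, a small membrane proteolipid of neurons, read 7.88, 7.10 and 7.12 with scramble and 7.17, 6.87 and 6.99 with the mimic, at the level of unnamed features. Scramble replicate 1 was the high array, the difference was -0.35 (SE 0.24), and -0.10 without that array, and the second feature had 0.25. Gnas, the gene of the stimulatory G protein subunit, read 11.29, 11.90 and 11.80 with scramble and 11.65, 12.10 and 11.55 with the mimic, with a log2 difference of 0.10 (SE 0.21), or -0.03 without both replicate 1 arrays. Its 3 further features were dim and lay between -0.13 and 0.14. The array names do not say which Gnas transcript a feature reads.

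A few imprinted genes are silenced on the maternal copy through histone H3 lysine 27 methylation inherited from the egg, a form known from the early embryo and the extraembryonic lineages. Sfmbt2, a polycomb protein gene needed for trophoblast maintenance, read 10.92, 10.72 and 10.77 with scramble and 10.60, 10.94 and 11.18 with the mimic, and its log2 difference was 0.10 (SE 0.17, 95% interval -0.28 to 0.48), or 0.31 without both replicate 1 arrays. Gab1, a docking protein of growth factor receptors, read 8.24, 9.12 and 9.46 with scramble against 8.13, 9.42 and 9.22 with the mimic, and both replicate 1 arrays were about 1 log2 unit below the rest. Its log2 difference of -0.02 had an SE of 0.42, and of 0.19 with the replicate block, and the same-numbered pairs differed by -0.11, 0.30 and -0.24. Slc38a4, an amino acid transporter of the placenta, read 8.99, 9.62 and 9.73 with scramble against 9.42, 9.59 and 9.87 with the mimic. Its log2 difference was 0.18 (SE 0.24), or 0.06 without both replicate 1 arrays. None of the 3 parted the groups. Smoc1, a gene of the same kind outside the 34, had 0.61 (SE 0.45) from mimic replicate 1 alone, at 9.99 against 8.21 to 8.35 on the other arrays. The naming rule given under the processing does not select Smoc1, so its value does not stand for other genes of that kind.

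**Figure D4:**
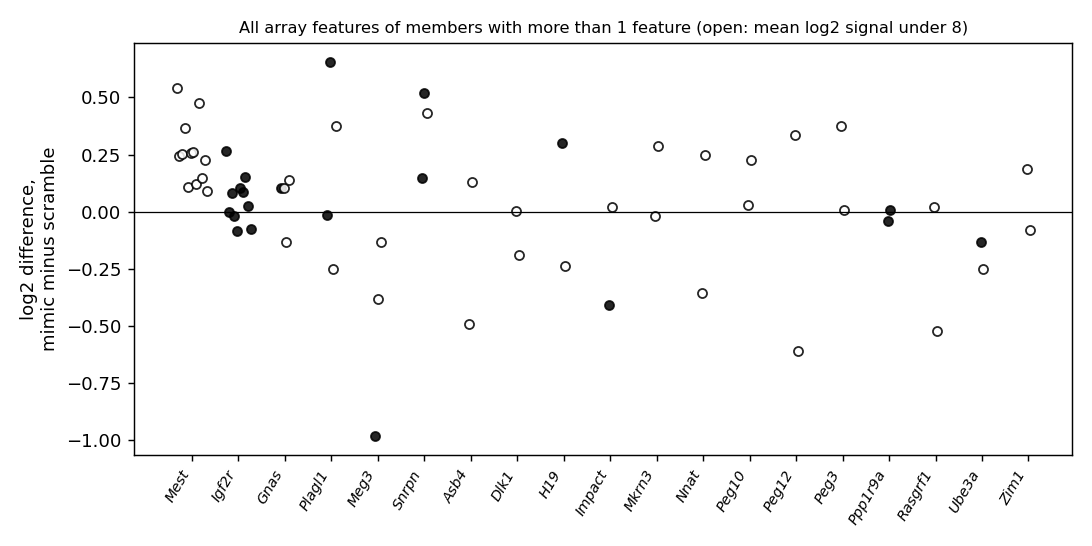
Log2 difference (mimic minus scramble, y axis) of every array feature for the 19 members with more than 1 feature (x axis); open circles are features with a mean log2 signal under 8. The features of Mest (12), Meg3 (3), Snrpn (3), Peg10 (2), Peg3 (2) and Ube3a (2) fall on 1 side of 0, and those of the other 13 members fall on both.

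Of 25 genes that set or guard imprints, all 25 were tested, and 15 had a higher and 10 a lower mean with the mimic. In limma 0 had an adjusted and 0 an unadjusted p under 0.05, where 3.17% of all genes had the latter. Under the block it was 2 of 25, Dnmt3l and Dppa3, where 7.24% of all genes had one. The median difference was 0.08. It was -0.08 without scramble replicate 1. Dppa3, which shields the maternal genome from demethylation in the zygote, read 8.99, 8.32 and 8.36 with scramble and 8.09, 7.65 and 8.01 with the mimic, without overlap. The log2 difference was -0.64 (SE 0.31, limma adjusted p = 0.972) and -0.51 without both replicate 1 arrays. Zfp57, whose protein binds the TGCCGC letters marked above, read 7.56, 7.81 and 7.56 with scramble against 7.92, 8.12 and 7.93 with the mimic. Its arrays did not overlap either, and its log2 difference was 0.35 (SE 0.26). The means of Zfp57, 7.64 with scramble and 7.99 with the mimic, were both below the level of 8. Dppa3 and Zfp57 were the only 2 of the 25 regulators whose arrays did not overlap, against 9.7% of all genes. Dnmt3l, the cofactor that sets methylation in germ cells, had 0.34 (SE 0.19).

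Of 55 further genes reported as imprinted, some of them only in the placenta, 51 were on the array and 38 were tested. Among these 23 had a higher mean with the mimic and 15 a lower one, and the median was 0.05. In limma 0 passed the adjusted threshold and 2 of 38 had an unadjusted p under 0.05, Igf2os and Mirg described above, against 3.17% of all genes. Under the block there were 5, with Ctsh, H13 and Pon2 as the further ones, against 7.24%. The arrays did not overlap for 5 of the 38, against 9.7% of all genes. Ctsh, a lysosomal protease gene, had the third smallest p, with 0.32 (SE 0.14, limma adjusted p = 0.972). Leaving out mimic replicate 2 turned the median of this list to -0.05, and leaving out mimic replicate 1 gave 0.17.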

How the data were processed

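Whole mouse blastocysts were measured on 6 arrays of 1 colour, grouped by the sample titles. The deposited values are log2 signal for 45220 features, with array medians of 7.366 to 7.376. The sources used here do not say how the scanner output was corrected and scaled. A shift shared by most genes would therefore not be seen. GEO's platform annotation named 33026 features with 1 symbol and 0 with several. The 12194 with none were left out.

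After leaving out the lowest 25% of features by mean over the 6 arrays (log2 signal under 7.16), the brightest feature per gene gave 17399 genes. These were tested with limma 3.58.1 (R 4.3.3, lmFit, eBayes with a trend, two-sided, Benjamini-Hochberg over all genes, threshold 0.05) by a script checked on simulated data. The simulation used independent noise, without an outlying array or a pairing, and larger changes than those of the members. It therefore does not show how well differences of the size reported here would be found. The SE of a difference had a median of 0.249, and the number of arrays limits the precision. Figures were drawn with matplotlib 3.10.9.

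Members, lists and the naming rule were chosen with earlier results of these data known. The rule gives array values for the 4 maternally and 6 paternally expressed members with the smallest p and for 15 members whatever their p, and names the 3 smallest p of each list. Array values of Rasgrf1, Slc22a18 and Gnas are printed outside this rule, and some list genes, such as Airn and Kcnq1ot1, are named outside it. Marker lists are given by level, and that of the labelled tissue also by its differences. The name Frat3 was dropped from the other imprinted genes as an older name of Peg12. Same-numbered arrays deviated together, with correlations of 0.328, 0.349 and 0.204 for replicates 1, 2 and 3. Arrays of different numbers reached 0.185 (scramble 2 with mimic 3) and 0.124 (scramble 3 with mimic 2), close to the replicate 3 pair. Each same-numbered pair is over 0.1, but so are these differently numbered arrays. The numbers may pair the samples, but neither the data nor the labels settle it. The main fit leaves such a pairing out, and the replicate block takes it in as an alternative. Every SE, interval and limma p given without mention of the block is therefore unpaired. Alternatives were other filters, probe choices, scalings and spread models, the replicate block, and arrays left out. The level of 8 was added as one after seeing the data.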

Additional observations from a re-analysis of the deposited data

How the results depend on the processing

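Under the alternatives run (other filters, probe choices, scalings and spread models, the replicate block, and arrays left out), 0 imprinted members passed the adjusted threshold in limma, and the unadjusted p was under 0.05 for 1 to 3 of them. The replicate block let 1 gene of 17399 pass, which is no member, where 0 passed without it, and the block changed no other call. At an unadjusted p under 0.05 there were 1260 genes with the block, 1000 without both replicate 1 arrays, 919 without scramble replicate 2, 377 without mimic replicate 3 and 362 without mimic replicate 2, against 552. With each array left out in turn, the median log2 difference went from 0.011 to 0.147 over the members, from 0.03 to 0.18 over maternally and from -0.07 to 0.22 over paternally expressed ones, and their difference from -0.18 to 0.23. That difference was also -0.0066 with no filter on dim probes, -0.07 with the mean of all features of a gene, 0.04 without members imprinted mainly in nerve cells or late tissues, and 0.08 with Gnas counted as maternal. The mean of all features took Meg3 to -0.50 (unadjusted p 0.109). Peg12 changed sign, to -0.14 with the mean of its features and -0.62 after quantile normalization. Its 2 features have almost equal means (7.4268 and 7.4258), and the second had -0.61 in the deposited values. The value after quantile normalization thus appears to come from a switch to that feature rather than from the scaling. Asb4 went from -0.80 to 0.12 with arrays left out in turn, and to 0.075 without both replicate 1 arrays. The regulators' median went from -0.08 to 0.19 and that of other imprinted genes from -0.05 to 0.17 with arrays left out in turn. Differences of members with a signal near 7.22, the median of unnamed features, may not be measurable.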
